A study of Mus musculus with 2 samples.

Results

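The subunits of the 2 condensin complexes and the 2 type II topoisomerases were followed in mouse embryonic stem (ES) cells labelled as Ago1 knockout. The 10 genes were taken by symbol from 55421 genes in the count table: Smc2 and Smc4, Ncapd2, Ncapg and Ncaph, Ncapd3, Ncapg2 and Ncaph2, and Top2a and Top2b. The cells were E14 mouse ES cells of 129/Ola background carrying an AGO1 knockout, grown on gelatin with 15% serum and 100 U/ml leukaemia inhibitory factor (LIF). Polyadenylated RNA was sequenced from 2 samples of this genotype, called KO1 and KO2 here. Whether these samples were independent clones or cultures is not said in the labels, and their spread can therefore be of technical origin. No library without the knockout was used here, so the values describe levels in cells labelled as knockout and how far the duplicates differed, and no effect of losing Ago1 was measured.

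Condensins are ring-shaped ATPases that compact and stiffen chromosomes for mitosis. SMC2 and SMC4 form the ATPase of both complexes, a kleisin (NCAPH in condensin I, NCAPH2 in condensin II) closes the ring, and a pair of HEAT-repeat proteins (NCAPD2 and NCAPG, or NCAPD3 and NCAPG2) completes each complex. Condensin II resides in the nucleus throughout the cell cycle and starts condensation in prophase, whereas condensin I reaches the chromosomes after the nuclear envelope breaks down. Topoisomerase II passes 1 DNA duplex through another and so untangles sister chromatids. TOP2A is the form of dividing cells and a main protein of the mitotic chromosome axis, and TOP2B is also made in cells that no longer divide and is needed in neurons. ES cells divide fast, with short gap phases.

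KO1 held 57048330 counts and KO2 54408708. For the targeted gene Ago1 the table gives 1497 counts in KO1 against 452 in KO2, or 26.4 and 8.27 counts per 1000000 (CPM). Ago1 RNA was thus detected in both libraries, at a 3.18-fold higher level in KO1. The log2 ratio of KO2 to KO1 was -1.67 (95% interval for counting error -1.83 to -1.52), and -1.70 after correction for GC content. Counts per gene do not tell which exons the reads came from, so they do not check the knockout label, and the duplicates were not alike at the targeted gene. The part of this difference in the values below was not tested. All 8 ES cell markers listed were detected, with a summed level of 5594 and 5799 CPM in KO1 and KO2. Of 8 fibroblast markers 1 was detected, Thy1, with the list at 21.2 and 25.3 CPM and with Postn and Lum at 0 counts. Of 6 primitive endoderm markers 5 were detected, at 87.9 and 92.3 CPM in sum. Of 6 neural markers 4 were detected, at 493 and 522 CPM in sum, of which Stmn2 made up 457 CPM on average, while Dcx and Neurog2 had 1 count each over both libraries. All 6 skeletal muscle markers were above 1 CPM in KO1, from 1.21 for Myl1 to 2.08 for Acta1. In KO2 they were at most at 0.439 CPM, so none counted as detected, which here needs 1 CPM in both libraries. Their sum was 10.2 CPM in KO1 against 1.48 CPM in KO2. By the 2-fold rule given below, 6 of 6 were lower in KO2, where 1.06% of all genes tested passed it in either direction. With the GC correction it was again 6, where 0.269% did. The part of these other cell types in the values below was not tested.

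All 10 genes were detected, which here means that both libraries reached a CPM of 1. Of all genes counted, 24.1% did so, and of protein-coding genes 55.3%. Levels between genes are given as CPM per kb of exons, with the length taken over all annotated exons of the gene. On that scale the median of the 10 genes was 38.6 CPM per kb, beside 5.85 over 12148 detected protein-coding genes. The highest was Top2a, which ranked 347 among those genes, and the lowest was Top2b, which ranked 5655. In RNA from a whole culture, fewer cells making a transcript and less of it per cell cannot be told apart.

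**Figure D1:**
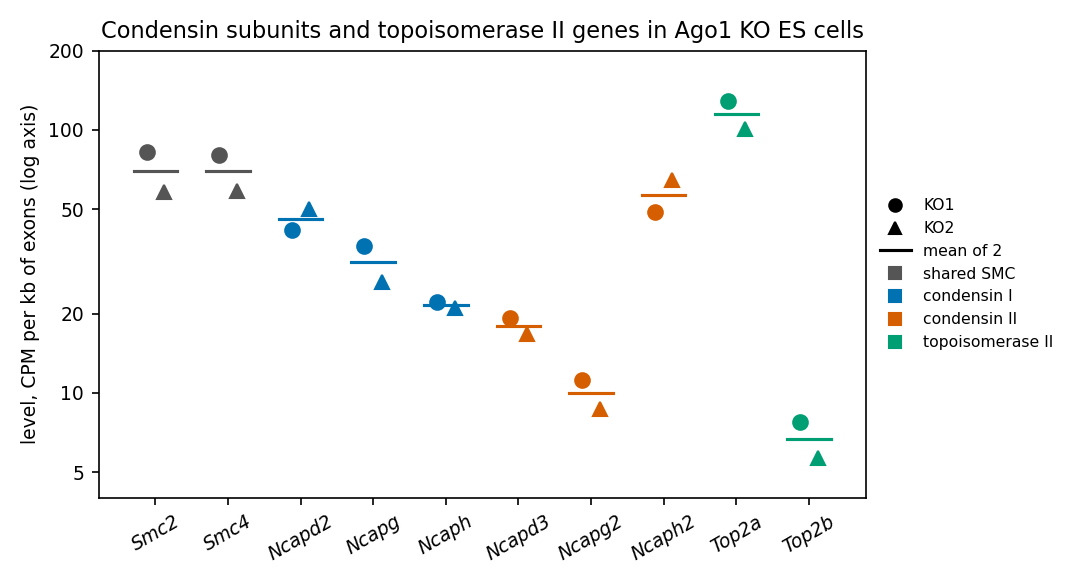
Level of each gene in CPM per kb of exons (log axis), with circles for KO1, triangles for KO2 and a bar for the mean of the 2 libraries, coloured by complex. Top2a lies highest and Top2b lowest, and Ncaph2 lies above the other condensin II subunits.

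The shared ATPase subunits stood at nearly equal levels. Smc2 had 25568 counts (KO1) and 17334 counts (KO2), or 82.2 and 57.9 CPM per kb. Smc4 had 23834 and 16638 counts, or 80.5 and 58.5 CPM per kb. Both were higher in KO1 than in KO2, and the ranges of the 2 genes overlapped. The log2 difference of the levels, Smc2 minus Smc4, was 0.01 ± 0.03 (SD, n = 2). Its sign depended on the gene length used: it was -0.24 with the longest protein-coding transcript and 0.19 with the coding length. Smc2 (ENSMUSG00000028312) lies on chromosome 4 from 52439243 to 52488260 on the plus strand of GRCm38, and Smc4 (ENSMUSG00000034349) on chromosome 3 from 69004738 to 69034623 on the plus strand.

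The Smc4 gene holds the microRNA genes Mir15b and Mir16-2 between its exons on the same strand, with 0 exon bases shared. Their mature forms are shown because Argonaute proteins carry microRNAs and this host transcript is among the members. The sequences are from RefSeq on GRCm38.p6, with the seed, bases 2 to 8, in capitals.
mmu-miR-15b-5p: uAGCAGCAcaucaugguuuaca
mmu-miR-16-5p: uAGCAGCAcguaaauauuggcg
Both carry the seed AGCAGCA. Each of the 2 loci had 0 counts in both libraries, which allows up to 0.0528 CPM in KO1 and 0.0549 CPM in KO2 for counting error. A polyadenylated RNA library does not measure mature microRNAs, so the host level of 362 ± 81.3 CPM for Smc4 (SD, n = 2) says nothing of their abundance.

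In condensin I, the HEAT-repeat subunit gene Ncapd2 was the highest per kb of exons. Its counts were 14807 (KO1) and 17095 (KO2), or 41.6 and 49.9 CPM per kb. Ncapg, the other HEAT-repeat subunit gene, had 14544 and 10214 counts, or 36.2 and 26.5 CPM per kb. The kleisin gene Ncaph was the lowest, with 5437 and 4937 counts, or 22.2 and 20.98 CPM per kb. The 3 genes kept this order in both libraries and their ranges did not overlap, but Ncapd2 was higher in KO2 and the others higher in KO1. The order of Ncapd2 and Ncapg depended on the gene length used. With coding length Ncapg had 84.99 (KO1) and 62.1 (KO2) CPM per kb against 62.4 and 74.9 for Ncapd2, and with the longest protein-coding transcript 69.1 and 50.5 against 56.3 and 67.6. With either length the ranges overlapped and Ncapg was the higher in KO1 alone, while Ncaph stayed the lowest of the 3 genes in both libraries. Ncapd2 (ENSMUSG00000038252) maps to chromosome 6, minus strand, 125168007 to 125191701, Ncapg (ENSMUSG00000015880) on chromosome 5 from 45669919 to 45700546 on the plus strand, and Ncaph (ENSMUSG00000034906) on chromosome 2, minus strand, 127103809 to 127133954.

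In condensin II, the kleisin gene was the highest and not the lowest. Per kb of exons, the D subunit gene lay above the G subunit gene, as in condensin I on that scale. With coding length the ranges of Ncapd3 and Ncapg2 overlapped. The kleisin gene Ncaph2 was covered by 11616 (KO1) and 14786 (KO2) counts, or 48.7 and 64.5 CPM per kb. The HEAT-repeat subunit gene Ncapd3 had 8659 and 7222 counts, or 19.3 and 16.8 CPM per kb. Its partner Ncapg2 had 6346 and 4716, or 11.2 and 8.68 CPM per kb. Ncaph2 was thus above both HEAT-repeat genes in both libraries, without overlap, and it was higher in KO2 while they were higher in KO1. Ncaph2 (ENSMUSG00000008690) lies on chromosome 15 from 89355719 to 89372826 on the plus strand. Ncapd3 (ENSMUSG00000035024) lies on chromosome 9 from 27030175 to 27095315 and Ncapg2 (ENSMUSG00000042029) on chromosome 12 from 116405402 to 116463731, both on the plus strand. Of the exon bases of Ncaph2, 19.7% lie under exons of genes on the opposite strand, Sco2 with 182 and 201 counts and Tymp with 11 and 21 counts in KO1 and KO2. For Ncapg this share was 13.4%, under Lcorl with 1398 and 950 counts.

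Set side by side as paralogs, the HEAT-repeat genes were higher for condensin I and the kleisin gene was higher for condensin II. Ncapd2 exceeded Ncapd3 by a log2 difference of 1.34 ± 0.33 (SD, n = 2), with 1.11 in KO1 and 1.58 in KO2. Ncapg exceeded Ncapg2 by 1.65 ± 0.06, with 1.69 and 1.61. Ncaph lay under Ncaph2, with a log2 difference of -1.38 ± 0.34, and -1.13 and -1.62 in the 2 libraries. Each pair kept its direction in both libraries and with each of the 4 length scalings (all exons, longest protein-coding transcript, coding length, none). With 1 group of 2 libraries, no test of these differences was made.

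Averaged over the 3 pairs, condensin I subunits were 1.45-fold above condensin II subunits, a log2 difference of 0.54 ± 0.02 (SD, n = 2). From KO1 to KO2 the Ncapd pair rose from 1.11 to 1.58 and the Ncaph pair fell from -1.13 to -1.62. These shifts offset each other in the average, so its small SD is no measure of the spread of the pairs. This average rests on pairs that go opposite ways. Without Ncaph and Ncaph2 it was 1.49, and without Ncapg and Ncapg2 it was -0.02. As a share of the summed level of the 6 subunits, condensin I made up 55.8% in KO1 and 52.0% in KO2, and with coding length 51.7% and 46.8%. The ratio of condensin I to condensin II thus differed from role to role.

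**Figure D2:**
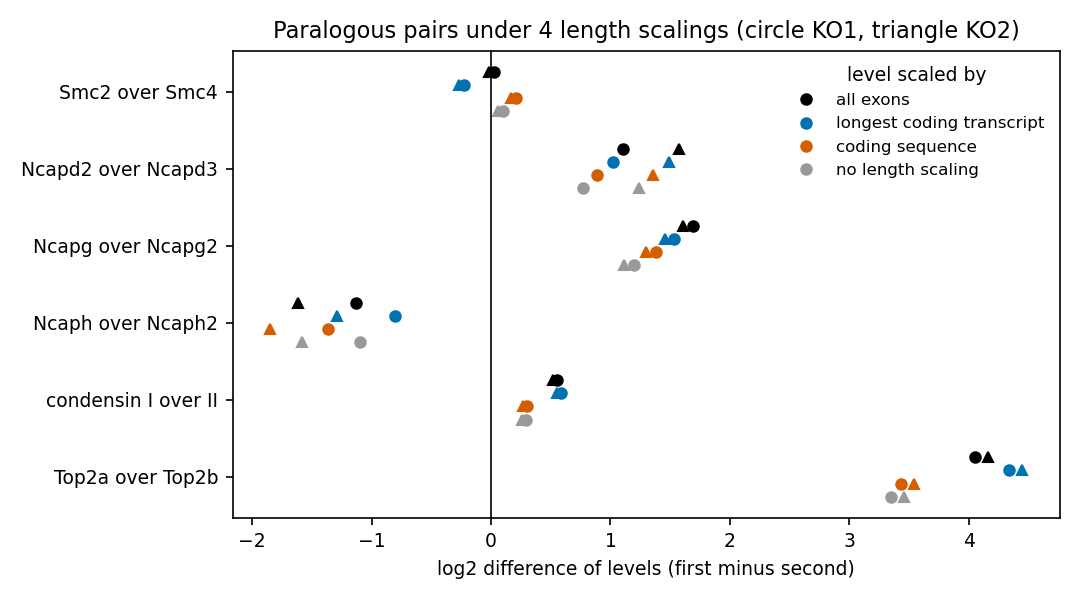
Log2 difference of levels within each paralogous pair, the mean over the 3 condensin pairs and Top2a over Top2b, with circles for KO1, triangles for KO2 and a colour for each length scaling. The Ncapd and Ncapg pairs lie above 0, the Ncaph pair below 0 and Smc2 over Smc4 near 0, under each of the 4 scalings.

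Every condensin complex holds 1 SMC2, 1 kleisin and 1 subunit of each HEAT-repeat kind, so the level of Smc2 was set beside the summed paralogs of each role. Against Ncaph and Ncaph2 summed, Smc2 was 1.16-fold in KO1 and 0.678-fold in KO2. Against Ncapd2 and Ncapd3 summed, it was 1.35-fold and 0.869-fold. Against Ncapg and Ncapg2 summed, it was 1.73-fold and 1.65-fold. The first of these ratios lay above 1 in KO1 and below 1 in KO2, and so did the second, while the Ncapg ratio stayed above 1 in both libraries. For all 3 ratios the side of 1 depended on the processing. With the longest protein-coding transcript as length, each ratio lay below 1 in both libraries: 0.855 and 0.508 for the kleisins, 0.991 and 0.641 for the Ncapd genes and 0.896 and 0.852 for the Ncapg genes. With coding length the kleisin ratio was 0.809 and 0.468. With levels corrected for GC content, the kleisin ratio was 0.729 and 0.671 and the Ncapd ratio 0.950 and 0.887. Transcript levels are not protein levels, and no subunit is called limiting from them.

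Top2a was the most abundant of the 10 genes by counts and per length. Its counts were 65721 (KO1) and 49634 (KO2), or 1157 and 908 CPM and 128 and 101 CPM per kb. Top2b had 6434 and 4505 counts, or 113 and 82.5 CPM and 7.75 and 5.64 CPM per kb. The libraries did not overlap between the 2 genes, and both genes were higher in KO1. Top2a exceeded Top2b per length by a log2 difference of 4.10 ± 0.08 (SD, n = 2), or 17.2-fold. The log2 difference was 3.48 with coding length and 4.39 with the longest protein-coding transcript, and the exons of Top2b span 14613 bases against 4836 for its coding sequence. Top2a made up 94.5% ± 0.278 of the summed per-length level of both. Of the raw counts of both genes, Top2a had 91.1% in KO1 (95% exact Clopper-Pearson interval 90.9 to 91.3) and 91.7% in KO2 (91.4 to 91.9). Top2a (ENSMUSG00000020914) maps to chromosome 11, minus strand, 98992943 to 99024189, and Top2b (ENSMUSG00000017485) on chromosome 14 from 16365179 to 16435462 on the plus strand. Of the exon bases of Top2b, 12.3% lie under exons of Rarb on the opposite strand, at 16 counts (KO1) and 10 counts (KO2).

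In order of mean level per kb of exons, Top2a came first, followed by Smc2, Smc4, Ncaph2, Ncapd2, Ncapg, Ncaph, Ncapd3, Ncapg2 and Top2b. The ranges over the 2 libraries overlapped between Smc2 and Smc4, between Smc4 and Ncaph2 and between Ncaph2 and Ncapd2, so the order among these neighbours is not set. For the other neighbours they did not overlap on this scale. With coding length, Ncaph2 was at 130 ± 25.7 CPM per kb (SD, n = 2), above Smc2 at 107 ± 26.3 and Smc4 at 93.8 ± 21.1, so the place of Ncaph2 in the order also depended on the length used. With that length Ncapg and Ncapd2 changed places in the order of means, and the ranges of Smc4 and Ncapg, of Ncapg and Ncapd2 and of Ncapd3 and Ncapg2 overlapped. With the longest protein-coding transcript, Smc4 came second, and the ranges of Smc2 and Ncapd2 and of Ncapd2 and Ncapg overlapped. Top2a stayed first, and Ncaph, Ncapd3, Ncapg2 and Top2b stayed last in that order of means, with each of the 3 lengths. With no length scaling Top2a was again first, but Ncaph had the lowest mean at 93.0 CPM. Top2b followed at 97.9 CPM and Ncapg2 at 99.0 CPM, and the ranges of these genes overlapped.

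The promoters of Top2a, Top2b, Smc2 and Ncapg are shown because the first pair had the widest difference in level and because cell cycle genes often carry CCAAT boxes together with a cell cycle genes homology region (CHR), elements known to be bound by NF-Y and by the MuvB complexes. Windows of 250 bases before the RefSeq start were present for 9 of the 10 genes. They were searched on both strands for the CHR letters TTTGAA, for CCAAT, and for the E2F-like letters TTGGCGC as well as TTCCCGC, with the variants TTGCCGC as well as TTCGCGC, and matches are in capitals below. GC box letters (GGGCGG) and TATA letters were searched for as well, and GC box matches are not in capitals. No match overlaps another in the printed stretches. Each stretch is from RefSeq on GRCm38.p6, runs 5′ to 3′ on the strand of the gene and ends before the first exon base of the gene in GENCODE.
Top2a, chr11:99024190-99024439, minus strand: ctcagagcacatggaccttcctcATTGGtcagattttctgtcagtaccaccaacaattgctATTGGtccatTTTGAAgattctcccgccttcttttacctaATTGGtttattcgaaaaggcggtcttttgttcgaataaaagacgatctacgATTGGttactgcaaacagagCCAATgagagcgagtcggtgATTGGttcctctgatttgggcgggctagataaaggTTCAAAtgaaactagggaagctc
Top2b, chr14:16364956-16365178, plus strand: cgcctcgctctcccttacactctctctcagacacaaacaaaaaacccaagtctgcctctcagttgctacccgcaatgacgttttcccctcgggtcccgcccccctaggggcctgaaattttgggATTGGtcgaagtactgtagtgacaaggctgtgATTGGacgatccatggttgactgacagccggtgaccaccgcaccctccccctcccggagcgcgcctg
Smc2, chr4:52438971-52439220, plus strand: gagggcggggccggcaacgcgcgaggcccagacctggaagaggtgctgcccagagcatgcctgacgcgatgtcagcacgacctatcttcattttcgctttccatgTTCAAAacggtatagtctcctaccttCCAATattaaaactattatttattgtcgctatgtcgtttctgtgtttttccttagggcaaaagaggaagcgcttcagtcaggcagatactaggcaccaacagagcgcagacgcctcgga
Ncapg, chr5:45669675-45669918, plus strand: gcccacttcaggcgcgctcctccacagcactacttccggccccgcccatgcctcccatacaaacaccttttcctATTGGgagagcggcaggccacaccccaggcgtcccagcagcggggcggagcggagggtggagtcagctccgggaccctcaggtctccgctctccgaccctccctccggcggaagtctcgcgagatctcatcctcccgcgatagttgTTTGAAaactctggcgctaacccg

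The Top2a window held CCAAT or its complement 6 times, a number reached by 17 of 27018 RefSeq windows (1 for each gene, at its first listed start), and the CHR letters 2 times, the nearer copy 18 to 23 bases before the start. The Top2b window held CCAAT 2 times and the CHR letters 0 times. Smc2 and Ncapg each held 1 CCAAT and 1 CHR match, and in Ncapg the CHR match lay 25 to 30 bases before the start. Among the 9 windows, also 1 for each gene at its first listed start, 5 held CCAAT, against 34.5% of all windows, and 5 held the CHR letters, against 16.3%. Both were present in 4 of 9 windows (Smc2, Ncapd2, Ncapg and Top2a), against 5.73% of all windows. The E2F-like letters were in 3 of 9, against 7.97%. GC box letters were the most common, in 8 of 9 against 32.9%, and TATA letters were in 0 of 9, against 12.97%. The GC content of the 9 windows ran from 43.6% (Top2a) to 72% (Ncapd3), beside a median of 52% over all windows. The windows compared were not matched for GC content, so its part in these differences was not tested. A second RefSeq start of Ncapd3, whose window is chr9:27060166-27060415, is not in these counts, and that window held the CHR letters 1 time and CCAAT 0 times, whereas the first held neither. These are matches of letters, not measured binding sites, and a window without a match says nothing about the factor. Exons of a gene on the opposite strand reached into the windows of Ncapd2 (Mrpl51), Ncapd3 (Vps26b), Ncapg (1600023N17Rik), Ncapg2 (D430020J02Rik) and Ncaph2 (Lmf2), which is 5 of 9 windows, against 16.4% of the 27018 windows. The windows of Smc2, Ncaph, Top2a and Top2b held no such exon.

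How far the duplicates differed was measured as the ratio of KO2 to KO1 after scaling, with a 95% interval for counting error from the exact binomial distribution. This compares 2 libraries and not conditions. No member differed by more than 2-fold with its whole interval, where 1.06% of 15619 genes with at least 50 counts did, and none differed by more than 1.5-fold, where 6.6% did. The median log2 ratio of the 10 genes was -0.36, beside 0.01 over all genes tested. Smc2 had the lowest, at -0.50 (95% interval -0.53 to -0.48), and Ncaph2 the highest, at 0.40 (0.37 to 0.44). The intervals of 8 genes lay below 0, where 31.2% of all genes tested did, and those of Ncapd2, at 0.26 (0.23 to 0.30), and Ncaph2 lay above 0, where 34.3% did. Each of the 10 genes had at least 4505 counts in either library, which makes these intervals narrow. The shares over all genes tested include genes with as few as 50 counts, whose wider intervals exclude 0 less readily.

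These ratios followed the GC content of the transcripts. Transcript GC content ran from 39.7% for Smc2 to 54.0% for Ncapd2 and 55.7% for Ncaph2. Ratio and GC content were correlated over the 10 genes with a Pearson's r of 0.985 and a Spearman's rho of 0.952. Over 15603 genes tested, r was 0.766 and rho 0.827. Both are descriptions across genes that share the same 2 libraries. Beside genes within 1 percentage point of its own GC content, each of the 10 genes lay between the 10th and the 90th percentile of the ratios, with 13.6% to 52.4% of those genes below it.

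**Figure D3:**
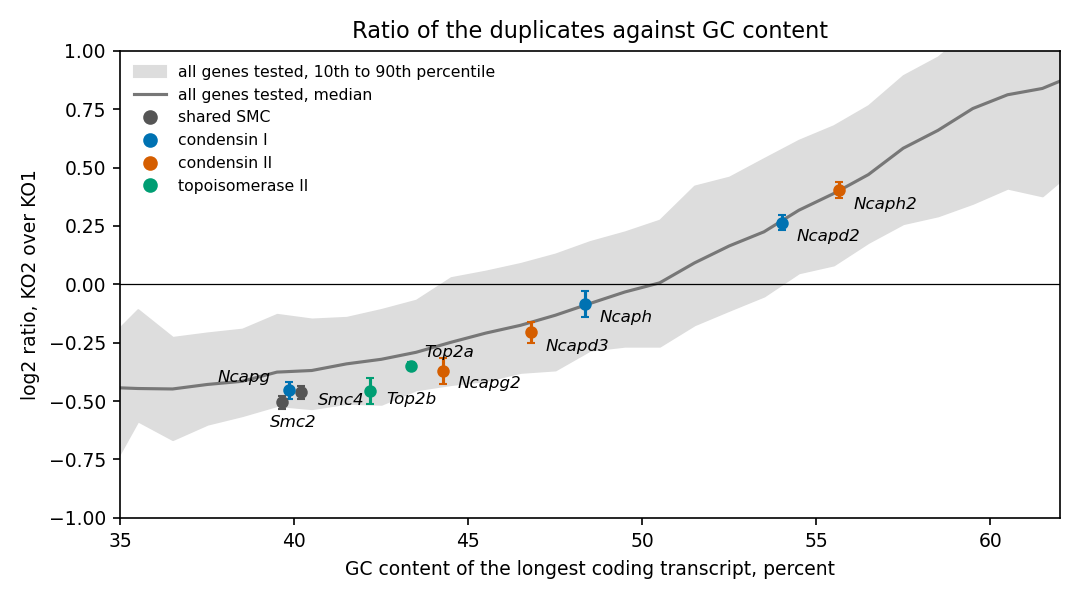
Log2 ratio of KO2 over KO1 against transcript GC content in percent for the 10 genes, with 95% counting intervals, over the median (line) and the 10th to 90th percentile (band) of all genes tested in bins of 1 percentage point. The 10 genes run along the band, from Smc2 at -0.50 to Ncaph2 at 0.40.

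With a loess correction of the ratio for GC content, the median of the 10 genes was -0.07, beside 0.003 over all genes. The corrected log2 ratios ran from -0.14 for Top2b (95% interval -0.19 to -0.08) to 0.01 for Ncaph (-0.04 to 0.07). The intervals of 6 genes still lay below 0, those of Smc2, Smc4, Ncapg, Ncapg2, Top2a and Top2b, where 17.7% of all genes tested did, and none lay above 0, where 20.2% did. The median absolute corrected log2 ratio was 0.07 for the 10 genes and 0.11 for all genes tested. The latter include genes with as few as 50 counts, where counting error widens the ratio. These medians therefore do not tell whether the shifts were small for genes of like depth. The shares of 17.7% and 20.2% were not matched for depth either, and narrow intervals exclude 0 more readily. Again no member passed 2-fold, where 0.269% of genes did. The paralogous differences also came closer between the libraries when the level within each library was corrected for GC content. Ncapd2 over Ncapd3 was then 1.63 in KO1 and 1.67 in KO2, and Ncaph over Ncaph2 was -1.73 in both. Because the correction removes the GC trend of each library, this closeness is no separate support for the differences.

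Related genes gave a frame for these levels. Of 49 genes in 6 lists, 47 were detected, and none differed by the 2-fold rule between the libraries, of 48 with at least 50 counts, where 1.06% of all genes did. All 15 condensin regulators were detected, with a median of 44.1 CPM per kb. They ran from Set, a histone chaperone and phosphatase inhibitor, at 405 ± 41.1 CPM per kb (SD, n = 2) to Mcph1, an inhibitor of condensin II, at 9.38 ± 0.791. All 4 genes of the chromosome periphery and the chromokinesins were detected, from the spindle protein gene Nusap1 at 41.8 ± 7.64 to the chromokinesin gene Kif4, whose product works with condensin I on the chromosome axis, at 13.5 ± 1.94. The order within both lists depended on the length scaling. With none, Mki67 (400 CPM) and Kif22 (174) lay above Nusap1 (170), and Aurkb (65.8) lay below Mcph1 (73.2). Set stayed highest and Kif4 lowest.

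The other SMC genes were all detected, 7 of 7, but at a lower median of 13.8 CPM per kb. The cohesin ATPase gene Smc3 was the exception, at 76.3 ± 12.7 CPM per kb (SD, n = 2), beside 70.0 ± 17.1 for Smc2 and 69.5 ± 15.6 for Smc4. Its partner Smc1a was at 35.9 ± 3.58 and the meiotic form Smc1b at 9.72 ± 1.63. Smc5 and Smc6, of the SMC5/6 complex, were at 22.1 ± 3.99 and 10.7 ± 2.07, Rad50, of the MRN repair complex, at 13.8 ± 1.29 and Smchd1, a factor of X inactivation, at 4.84 ± 0.875. Among the partners of SMC5/6, 6 of 7 were detected, with Nsmce1 highest at 31.9 ± 0.118 and Eid3 lowest at 0.715 ± 0.0191 CPM per kb. With no length scaling, Nsmce4a (144 CPM), Slf2 (116) and Nsmce2 (68.8) lay above Nsmce1 (42.4), while Eid3 stayed lowest. Smc5 and Smc6 were then at 150 and 133 CPM.

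Per kb of exons, the other topoisomerases lay between Top2a and Top2b or near Top2b. This place depended on the length scaling. With no length scaling, Top2b had 97.9 CPM, below Top1 (221) and Top3b (126) but above Top3a (33.8) and Top1mt (13.3). Top1, which relaxes supercoils by cutting 1 strand, was at 21.2 ± 3.75 CPM per kb (SD, n = 2), Top3b at 15.0 ± 1.54, Top3a at 7.35 ± 0.738 and the mitochondrial Top1mt at 6.50 ± 0.813, beside 115 ± 19.5 for Top2a and 6.70 ± 1.49 for Top2b. Of the 8 genes in this list 7 were detected, and the meiotic gene Spo11 had 1 count over both libraries. All 8 genes that repair trapped topoisomerase were detected, from Tdp2, which frees topoisomerase II from DNA ends, at 30.7 ± 5.31 to Rbbp8 at 3.05 ± 0.565 CPM per kb. Without length scaling, Mre11a (111 CPM) and Zfp451 (102) lay above Tdp2 (101), and Pias4 (30.6) lay below Rbbp8 (38.2). By distance of log2 levels over the 2 libraries, the nearest listed gene to Smc2 and to Smc4 was Smc3 (0.22 for both), to Top2a the mitotic cyclin gene Ccnb1 (0.22), and to Top2b the SUMO ligase gene Zfp451 (0.16). The next nearest were the phosphatase gene Ppp1cc to Smc2 (0.36) and Smc4 (0.33), the cyclin gene Ccna2 to Top2a (0.74) and Rmi1 to Top2b (0.31). With 2 libraries this is a likeness of level per kb of exons alone.

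**Figure D4:**
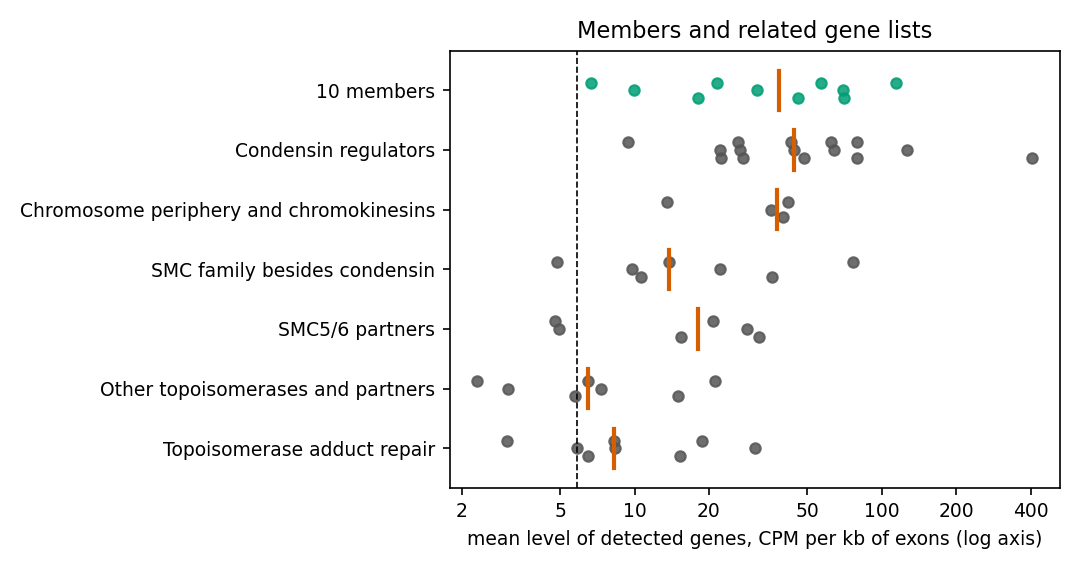
Mean level of each detected gene over the 2 libraries, in CPM per kb of exons (log axis), for the 10 genes and 6 related lists, with the median of the detected genes as a vertical bar and that of all detected protein-coding genes, 5.85, as a dashed line. The condensin regulators reach the levels of the 10 genes, and among the other topoisomerases Top3a and Top1mt lie near the dashed line, with Top3b and Top1 above it.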

How the data were processed

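Raw read counts for Ensembl genes were deposited by the authors as 1 table of whole numbers. Reads were placed on GRCm38, according to the submitters' processing notes. Aligner, counting program, strand setting and annotation: not given in the sources used here. Libraries were made from 1 µg of total RNA and were reverse-stranded, per the labels. The strands appear to have been counted apart: where 50% or more of the exon bases lay under a gene of the opposite strand, the median was 27.1 counts per kb (185 protein-coding genes), against 41.2 without any overlap (15430 genes) and 0 with overlap on the same strand (422 genes). Symbols, lengths and GC content came from GENCODE M21, which held 55240 of the 55421 identifiers.

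CPM used TMM factors of edgeR 4.0.16 (R 4.3.3). With 1 group no quasi-likelihood test could be made, and no p-value is given. The common biological coefficient of variation was 0.193 over 13347 genes. Intervals and floors (3 counts) cover counting error only. Loess used a span of 0.3, with statsmodels 0.14.6, and log2 ratios a prior count of 0.5. Alternatives included DESeq2 1.42.0 size factors. The steps were tested on simulated data. Members and lists were chosen with earlier results of these data known. All members are named, and of each list the highest and lowest by CPM per kb, the SMC genes and the topoisomerases, with the 2 listed genes nearest in level to Smc2, Smc4, Top2a and Top2b.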

Additional observations from a re-analysis of the deposited data

How the results depend on the processing

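No paired analysis was possible because there is 1 group. Leaving out either library always stays within 1 SD of a mean of 2, so it is no measure of stability. The log2 difference of condensin I over II, 0.54, was 0.57 with the longest protein-coding transcript, 0.28 with coding length and 0.28 with no length scaling. It was 0.78 as a median, 0.23 from summed levels and 1.13 for the lowest subunits. Leaving out a pair was chosen after seeing the data: the value was 0.14 without Ncapd2 and Ncapd3, -0.017 without Ncapg and Ncapg2, and 1.49 without Ncaph and Ncaph2. In the order longest transcript, coding length and no scaling, Top2a over Top2b was 4.39, 3.48 and 3.41, Ncapg over Ncapg2 was 1.49, 1.34 and 1.16, and Smc2 over Smc4 was -0.24, 0.19 and 0.080. Ncapd2 over Ncapd3 was 1.01 with no scaling, and Ncaph over Ncaph2 moved by less than its SD with each length. The median log2 ratio of the duplicates, -0.36, was -0.42 with DESeq2 size factors, both of which came out at 1, and -0.068 with the GC correction. The counts of detected genes and of members past 2-fold (0) did not change under the alternatives run. The ratios of Smc2 to summed paralogs were added after seeing the data. Depth does not limit these genes, the lowest of which had 4505 counts.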
